A study of Mus musculus with 2 samples.

Results

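Shared intergenic DNase I peaks of mouse gastrocnemius that lay over 1 kb and up to 10 kb from the nearest annotated gene start numbered 5922, out of 49760 replicate 1 peaks found in both libraries. A member was a replicate 1 peak of the longer peak list that overlapped a replicate 2 peak by 1 bp or more, overlapped the body of no protein-coding gene in GENCODE M21, and had its midpoint in that distance window from any annotated transcript start. The longer lists held 97499 peaks in replicate 1 and 61664 in replicate 2, and the members overlapped 5755 distinct replicate 2 peaks. Replicate 1 peaks can overlap one another: 154 members overlapped another member, and merging them left 5843 separate regions. Of all members, 1164 (19.7%) lay inside the body of a noncoding gene, since only coding genes were avoided.

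DNase-seq was performed on gastrocnemius, the large and mostly fast-twitch calf muscle, from male B6CASTF1/J mice, the first-generation hybrid of C57BL/6J and CAST/EiJ, at 25 days of age. There was 1 group with 2 libraries and no treatment, mutation or other tissue, so the comparisons are between positions in the genome and between the libraries. The labels number the libraries as biological replicates and describe them as different males, although both carry 1 donor identifier. Instrument models were named for replicate 1 alone, so sequencing and animal cannot be told apart where the libraries differ. With 2 libraries an exact sign-flip test cannot give a p below 0.5, so no p-value is given; shares carry Wilson 95% intervals, which cover counting error only, and means carry the SD over both libraries.

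Promoters are the stretches around a start where the transcription machinery assembles. Enhancers and insulators lie farther off, and DNase I cuts all of them readily when proteins hold the chromatin open. In muscle, helix-loop-helix factors of the MyoD family bind E-boxes, often beside MEF2 and TEAD proteins, while CTCF marks insulators and the anchors of chromatin loops. A footprint is a short protected stretch inside an open region, as a bound protein leaves. Transfer RNA genes carry their promoter within the transcribed sequence and are read by RNA polymerase III.

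The sequences of 8 members show the features that the results turn on. They are given on the plus strand of GRCm38.p6 (mm10), as RefSeq holds it, and were read from the C57BL/6J reference, so CAST alleles are not seen. The strongest member of all (chr5:149229001-149229300, near the long noncoding RNA gene 2310047D07Rik) is shown because it lies over a RefSeq tRNA-Asn gene, whose 74 bases are in capitals.

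2310047D07Rik: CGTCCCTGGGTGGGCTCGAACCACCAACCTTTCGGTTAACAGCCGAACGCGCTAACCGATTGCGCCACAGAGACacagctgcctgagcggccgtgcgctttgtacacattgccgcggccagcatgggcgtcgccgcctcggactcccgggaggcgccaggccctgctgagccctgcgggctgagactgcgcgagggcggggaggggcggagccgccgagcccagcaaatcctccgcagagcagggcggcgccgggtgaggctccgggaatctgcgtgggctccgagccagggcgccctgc

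In the next sequences capitals mark matches of the motifs searched, on either strand. The member between Ier2, an immediate early gene, and the noncoding gene Gm26664 (chr8:84663961-84664200) shows 2 ETS matches and a GC box that shares 1 base with the second of them. The member upstream of Nr1d1, the clock repressor REV-ERB alpha (chr11:98783381-98783640), shows a CACGTG E-box, the element that CLOCK and BMAL1 bind, beside a KLF-type CACCC box. The member downstream of Bhlhe41, another clock repressor (chr6:145855741-145855960), shows 2 such E-boxes, a CAGCTG E-box, a pair of GC boxes that share 1 base and a CACCC box.

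Ier2: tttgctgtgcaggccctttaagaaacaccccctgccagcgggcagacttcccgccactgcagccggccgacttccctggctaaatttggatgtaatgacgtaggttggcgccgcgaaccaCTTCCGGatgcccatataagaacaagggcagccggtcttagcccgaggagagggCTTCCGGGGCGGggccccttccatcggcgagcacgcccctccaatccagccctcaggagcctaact

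Nr1d1: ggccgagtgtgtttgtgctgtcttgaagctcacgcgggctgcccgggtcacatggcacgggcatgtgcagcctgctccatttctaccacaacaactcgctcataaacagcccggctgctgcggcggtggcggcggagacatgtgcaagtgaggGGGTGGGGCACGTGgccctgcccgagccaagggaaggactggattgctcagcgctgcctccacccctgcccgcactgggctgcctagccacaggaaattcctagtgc

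Bhlhe41: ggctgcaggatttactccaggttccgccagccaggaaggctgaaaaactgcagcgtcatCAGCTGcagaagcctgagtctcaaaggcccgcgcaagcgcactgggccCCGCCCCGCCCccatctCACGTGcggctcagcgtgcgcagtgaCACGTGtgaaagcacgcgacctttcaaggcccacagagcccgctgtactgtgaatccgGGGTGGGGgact

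Muscle genes supply the remaining 4 sequences. They are the members of Sgca, the sarcoglycan alpha of the dystrophin complex (chr11:94979021-94979220), with a GC box; of Myod1, the master regulator of the muscle lineage (chr7:46379121-46379300), with a CAGCTG E-box and a GC box; of Tnnt3, the fast troponin T (central 150 bp, chr7:142496886-142497035), with a CACCTG E-box; and of Stac3, an adaptor of excitation-contraction coupling (chr10:127509041-127509240), with a match to the CTCF consensus.

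Sgca: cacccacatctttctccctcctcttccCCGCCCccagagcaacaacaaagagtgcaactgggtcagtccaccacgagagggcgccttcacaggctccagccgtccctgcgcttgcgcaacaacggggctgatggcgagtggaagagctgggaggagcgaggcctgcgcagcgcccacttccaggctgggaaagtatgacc

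Myod1: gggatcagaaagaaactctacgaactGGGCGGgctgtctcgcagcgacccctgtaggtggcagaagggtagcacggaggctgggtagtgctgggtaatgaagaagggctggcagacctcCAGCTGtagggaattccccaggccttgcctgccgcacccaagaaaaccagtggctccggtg

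Tnnt3: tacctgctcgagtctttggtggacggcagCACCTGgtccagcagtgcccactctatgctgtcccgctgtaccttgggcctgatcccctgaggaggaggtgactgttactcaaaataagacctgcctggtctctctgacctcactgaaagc

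Stac3: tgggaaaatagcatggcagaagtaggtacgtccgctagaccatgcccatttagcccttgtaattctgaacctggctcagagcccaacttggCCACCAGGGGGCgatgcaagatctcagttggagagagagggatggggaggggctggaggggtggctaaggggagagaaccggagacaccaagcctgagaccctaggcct

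Matches in these sequences were covered by deposited footprints to different degrees. The centres of the CACGTG and CACCC matches of Nr1d1, of both ETS matches and the GC box of Ier2, of the GC and CACCC boxes of Bhlhe41, of the GC box of Sgca, of the CAGCTG of Myod1 and of the CTCF match of Stac3 lay in a footprint in both libraries. The centres of all 3 E-boxes of Bhlhe41, of the GC box of Myod1 and of the CACCTG of Tnnt3 lay in none.

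Signal is the authors' deposited value for each peak. All values of a library were whole multiples of 1 step, 0.00591 in replicate 1 and 0.00854 in replicate 2, within a tolerance of 0.1 step. If a step is 1 tag and signal is scaled to 1000000 tags, which no source states, the libraries held 169 M and 117 M tags (M is 1000000), and the median member had 194 and 127. The tissue was checked at promoters: all 8 skeletal muscle markers had a peak within 1 kb of a start in each library, as did 9 of 13 markers of other cells of muscle, while Ptprc and Csf1r of leukocytes, Adipoq of adipocytes and Tnmd of tendon had none. Of 5 genes of other tissues, Snap25 and Cdh1 had such a peak and Alb, Krt5 and Ttr did not. In whole tissue, fewer cells of a type with a site and less opening per cell cannot be told apart.

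Being close to a start was not the same as being close to an accessible protein-coding promoter. The nearest start belonged to a protein-coding gene for 2501 members (42.2%, 41.0 to 43.5%), to a long noncoding RNA gene for 1746 (29.5%), to a pseudogene for 1002 (16.9%) and to a small RNA gene for 447 (7.55%). A shared peak lay within 1 kb of the nearest start for 36.7% of members, and this share was 60.8% where that start was coding, 27.4% where it was a long noncoding RNA gene and 7.49% where it was a pseudogene. Over all annotated starts of these kinds the shares were 51.0%, 26.3% and 2.85%. A coding start lay within 10 kb for 3110 members (52.5%), at 10 to 50 kb for 26.2% and beyond 50 kb for 21.3%. The name "close to promoters" thus holds by annotation, and for 36.7% of members the nearest annotated start was itself accessible.

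Accessibility in the window was graded by the distance to coding genes. Members within 10 kb of a coding start had median signals of 1.28 in replicate 1 and 1.26 in replicate 2, those at 10 to 50 kb had 1.13 and 1.07, and those beyond 50 kb had 0.822 and 0.795. The order was the same in both libraries. Where the nearest coding gene within 10 kb also had a promoter peak (2385 members), the median member had 0.391 and 0.424 of the signal of that promoter peak. The member was the stronger of the pair in 19.7% and 18.3% of cases, and in both libraries for 327 members (13.7%).

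The density of shared intergenic peaks was highest next to a start, above all on its upstream side, and fell with distance. Density is the number of peaks per Mb of available sequence, meaning bases outside coding gene bodies at that distance. It was 18.8 per Mb at 1 to 2 kb, 14.7 at 2 to 3 kb, 13.7 at 3 to 4 kb, and between 11.9 and 13.2 from 4 to 10 kb. At 10 to 100 kb it was 8.04 and beyond 100 kb 2.11. Members as a whole had 13.9 per Mb, 1.73 times the density at 10 to 100 kb. Each library's own peaks, shared or not, gave folds of 1.49 and 1.62 (mean 1.55 ± 0.0959, SD, n = 2), lower than that of shared peaks. At 1 to 2 kb the upstream side held 20.3 per Mb and the downstream side 16.3.

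**Figure D1:**
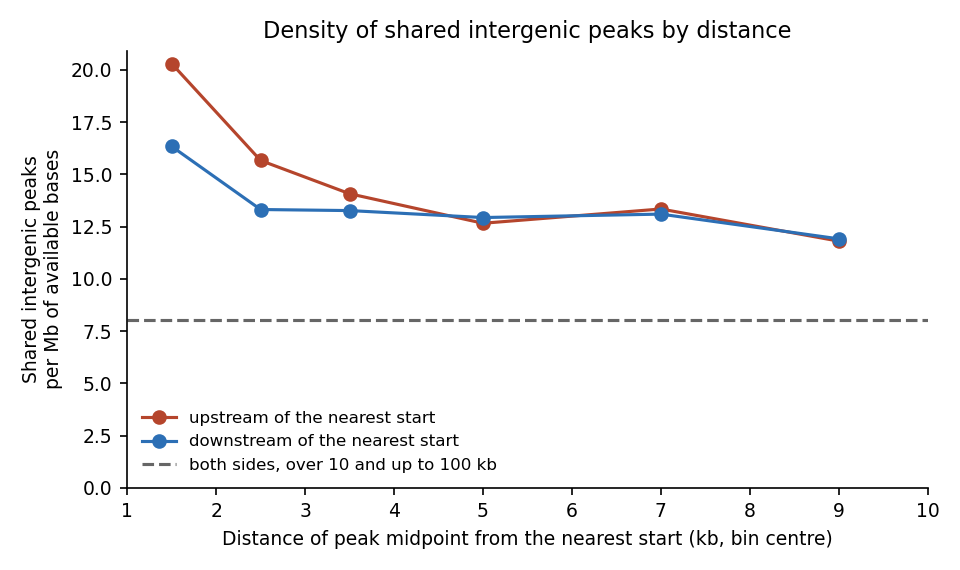
Shared intergenic peaks per Mb of available sequence (y axis) against the distance of the peak midpoint from the nearest start in kb (x axis, bin centres), upstream and downstream of that start; the dashed line is the density at 10 to 100 kb. Upstream density falls from 20.3 at 1 to 2 kb, the sides meet from about 4 kb, and every point lies above the line at 8.04.

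Over the whole window the side of the start made little difference. Upstream members were 3500 (59.1%, 57.8 to 60.3%), and upstream sequence was 57.2% of what was available, giving 14.4 per Mb upstream and 13.3 downstream. Where the nearest start was coding, 75.4% lay upstream but so did 76.9% of the available sequence, because the coding gene body itself had been left out. Between divergent coding genes there were 15.3 members per Mb, between convergent genes 14.6 and between genes in tandem 13. By kind of nearest start, density was 19.5 per Mb at coding genes and 18.3 at long noncoding RNA genes, against 12.2 at small RNA genes and 6.8 at pseudogenes.

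Member signal stood between that of intergenic peaks up to 1 kb from a start and that of distant ones. It was near that of introns. Its median was 1.15 and 1.09 in replicates 1 and 2. It was 1.25 and 1.30 times the median at 10 to 100 kb (mean 1.28 ± 0.0349, SD, n = 2), 1.87 and 1.90 times that beyond 100 kb (mean 1.88 ± 0.0266) and 1.06 and 1.07 times that of intronic peaks at the same distance (mean 1.07 ± 0.008). Against intergenic peaks up to 1 kb from a start it was 0.749 and 0.685 (mean 0.717 ± 0.0449). Those peaks also avoided coding gene bodies. The coding promoter peaks paired above with 2385 members had higher medians, 3.93 and 3.62. Each of these ratios lay on the same side of 1 in both libraries and farther from 1 than its SD. At the near edge of the window, 139 intergenic peaks just outside (900 to 1000 bp) had medians of 1.30 and 1.15 and 154 members just inside (to 1100 bp) had 1.14 and 1.20. At the far edge, 219 members just inside (9500 to 10000 bp) had 1.18 and 1.09 and 193 peaks just outside had 0.970 and 0.948.

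**Figure D2:**
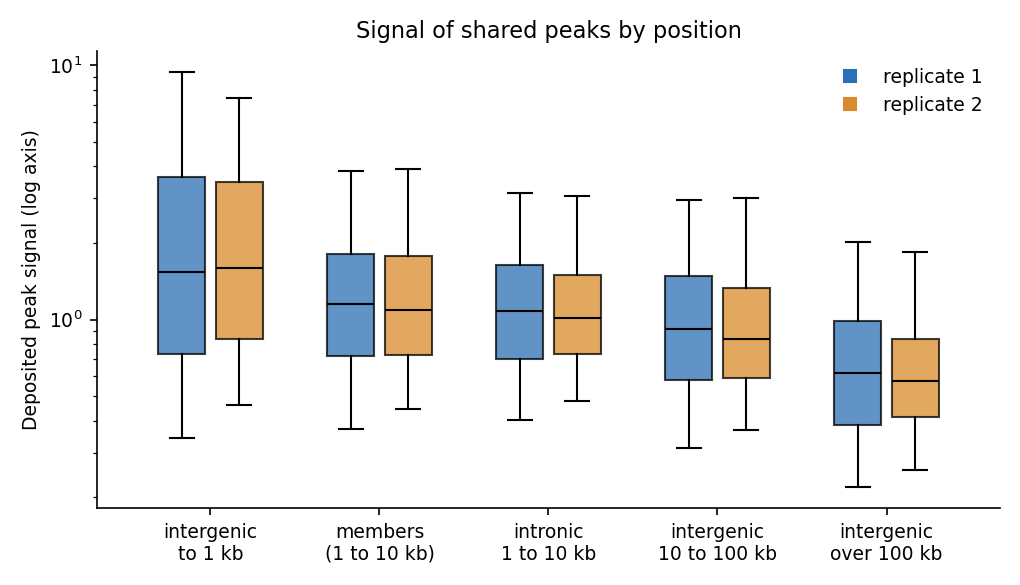
Deposited signal of shared peaks (log y axis) in 5 position groups (x axis), with a box for each library: lines are medians, boxes the middle 50% and whiskers the range from 5% to 95% of peaks. Member medians are 1.15 and 1.09, below intergenic peaks up to 1 kb from a start and above those at 10 to 100 kb.

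Among the 10 strongest members, 9 were rich in CpG and 2 overlapped tRNA genes. The member near 2310047D07Rik had 11.8 in replicate 1 and 13.4 in replicate 2. The next had 9.80 and 14.3, upstream of Txn2, the mitochondrial thioredoxin, and the one after 14.0 and 9.78, near Mir26b within reach of the phosphatase gene Ctdsp1. Which library was the higher differed among these 3. The member near the pseudogene Gm11708 (chr11:107012661-107012880) had 10.9 and 11.2. Only its end overlapped a tRNA-Arg gene (chr11:107012866-107012938). Others of the 10 lay near Trpv4, a calcium channel (9.93 and 11.7), Ptma (11 and 9.14), Gnai2, an inhibitory G protein subunit (10.8 and 8.81), Socs3, a brake on cytokine signalling (10.2 and 9.06), and the noncoding genes Gm44738 (11.3 and 11.8) and Gm38144 (11.3 and 8.29). A shared peak lay within 1 kb of the nearest GENCODE start for 5 of the 10.

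CpG-rich members were a small and strong minority. A member was called CpG-rich where its central 150 bp had at least 60% GC and an observed over expected CpG ratio of at least 0.6. They numbered 512 (8.65%, 7.96 to 9.39%), against 38.3% of intergenic peaks up to 1 kb, 5.37% of intronic peaks at 1 to 10 kb and 4.18% at 10 to 100 kb. Of all shared peaks 30.1% were CpG-rich. Their median signals were 2.05 and 2.20, against 1.11 and 1.05 for other members. Among the 100 strongest members 57 were CpG-rich. A RefSeq transcript start that GENCODE lacks lay within 1 kb of 109 of them (21.3%) and of 458 other members (8.47%, 7.75 to 9.24%), so 567 members (9.57%) would count as promoter peaks under the RefSeq annotation. Over all members the median GC content was 54.7%, against 54.0% at 10 to 100 kb and 55.3% in introns.

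Transfer RNA genes, taken from RefSeq after the strongest members were seen, overlapped 86 members (1.45%, 1.18 to 1.79%). An overlap at the edge of a peak, as near Gm11708, was counted too. Among intergenic peaks up to 1 kb from a start the share was 0.929% (0.659 to 1.31%), an interval that overlapped that of members, at 10 to 100 kb it was 0.439% (0.313 to 0.616%) and among intronic peaks 0.0885%. RefSeq placed 403 tRNA genes on the main chromosomes and 173 of them in the window, of which 86 (49.7%, 42.3 to 57.1%) overlapped a shared peak. The tRNA members ranged from 0.390 to 11.8 in replicate 1 (median 2.38) and from 0.461 to 13.4 in replicate 2 (median 2.78), or 2.10 and 2.58 times the medians of other members. They leaned to replicate 2, with a log2 ratio (replicate 1 to replicate 2) whose median was -0.33 after centring on all shared peaks. Chromosomes 11 and 13 held 28 and 24 of them. Many tRNA genes exist in near-identical copies, and how reads that map to several copies were treated is not given in the sources used here, so the signal of a single copy is uncertain.

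Footprints covered most members, with little difference from distant peaks of the same signal. In replicate 1, 94.0% of members overlapped a footprint, in replicate 2 88.2% (mean 91.1% ± 4.10, SD, n = 2), and 84.5% did so in both. Intergenic peaks at 10 to 100 kb had 1.20 and 4.53 percentage points less (mean 2.86 ± 2.36, SD, n = 2). Within the lowest quartile of signal over all shared peaks the shares were 81.4% of members and 82.1% of peaks at 10 to 100 kb in replicate 1, and 67.3% of each in replicate 2. In the next quartile they were 96.2% and 97.2% in replicate 1 and 93.2% and 93.5% in replicate 2. In the top quartile members had 100% and 99.8%. Of peaks at 10 to 100 kb, 35.0% and 43.8% were in the lowest quartile, against 24.5% and 28.0% of members.

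The CTCF consensus and the GC box were each found in 711 members (12%, 11.2 to 12.9%). CTCF was more common and the GC box less common than in intergenic peaks up to 1 kb from a start. Motifs were matched exactly on both strands of the central 150 bp. CTCF, named here after its values were seen, was in 3.98% of intergenic peaks up to 1 kb, 10.54% at 10 to 100 kb (9.86 to 11.3%) and 6.50% of all shared peaks. The GC box of SP and KLF factors, GGGCGG, was in 36.2% up to 1 kb, 9.27% at 10 to 100 kb (8.64 to 9.95%), 11.3% of intronic peaks and 27.1% of all shared peaks. CTCF matches were in 16.9% of the top quartile of members by signal and 5.6% of the lowest, and GC boxes in 19.9% and 7.16%.

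The GC box and the CACCC box were more common in members than at 10 to 100 kb, and the MyoD-type E-box, the NFI element TTGGCA and the CArG box less. By ratio of shares the 5 highest of 21 motifs with 20 or more members were the CRE of CREB and ATF factors (TGACGTCA, 0.608% against 0.412%, and 1.13% of all shared peaks), the ETS motif (CCGGAAG, 2.06% against 1.58%, 4.84% of all shared), the GC box, the KLF-type box (CCCCACCC, 4.63% against 3.65%, 5.15% of all shared) and the RUNX motif (TGTGGTTT, 1.22% against 0.971%, 0.695% of all shared). The 95% intervals of the CRE, RUNX and ETS shares overlapped those at 10 to 100 kb. The 3 lowest were the SRF CArG box, in 0.473% (0.327 to 0.683%) against 0.891% (0.703 to 1.13%) and 0.581% of all shared peaks, the forkhead motif (TGTTTAC, 1.32% against 1.82%, 1.33% of all shared) and the NFI element (TTGGCA, 13.5% against 16.6%, 11.6% of all shared). Of these the forkhead intervals overlapped. The longer NFI palindrome, below the limit of 20 members, went the other way with few matches. It was in 8 members (0.135%) and in 2 peaks at 10 to 100 kb (0.0266%), with overlapping intervals. The MyoD-type E-box CAGCTG was in 19.3% (18.3 to 20.3%) against 21.6% (20.7 to 22.5%), and in 16.7% of all shared peaks. The CACCTG E-box was in 13.7% against 12.7% (11.3% of all shared), the TEAD element GGAATG in 9.27% against 9.82% (7.9% of all shared) and MEF2 in 1.05% against 1.24% (0.928% of all shared). AP-1 matches (TGANTCA with C or G in the middle) were in 5.35% against 6%, and in 4.01% of all shared peaks. Intronic peaks at 1 to 10 kb were closer to members in most of these motifs. Their shares were 11.3% for the GC box, 4.98% for the CACCC box, 21.5% for CAGCTG, 15.0% for TTGGCA and 0.567% for the CArG box. Among these only the CAGCTG interval (20.4 to 22.6%) did not overlap that of members. A match is a description of the letters and not a bound site.

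CTCF matches were nearly always inside footprints, while most E-boxes and GC boxes were not. The centre of a match lay in a footprint for 94.7% of 715 CTCF matches in replicate 1 and 88.4% in replicate 2. Footprints covered 21.5% and 16.6% of all bases searched. Of 8 matches to the REST consensus, the element of a repressor of neuronal genes, 7 had their centre in a footprint in replicate 1 and 7 in replicate 2. CRE matches gave 19 and 18 of 36, YY1 matches (AAGATGGC) 52.2% and 39.1% of 69, and GC boxes 45.7% and 36% of 923. CAGCTG gave 24.8% and 20.7% of 1307, close to the share of bases, and MEF2 matches gave 14.7% and 1.47% of 68. CACCTG gave 39.1% and 36.8% of 882, but 119 of these matches overlapped a CTCF match, and without them the shares were 30.4% and 28.2%. NFI elements gave 44.3% in replicate 1 and 23.7% in replicate 2, a difference between the libraries wider than that of the CTCF matches.

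**Figure D3:**
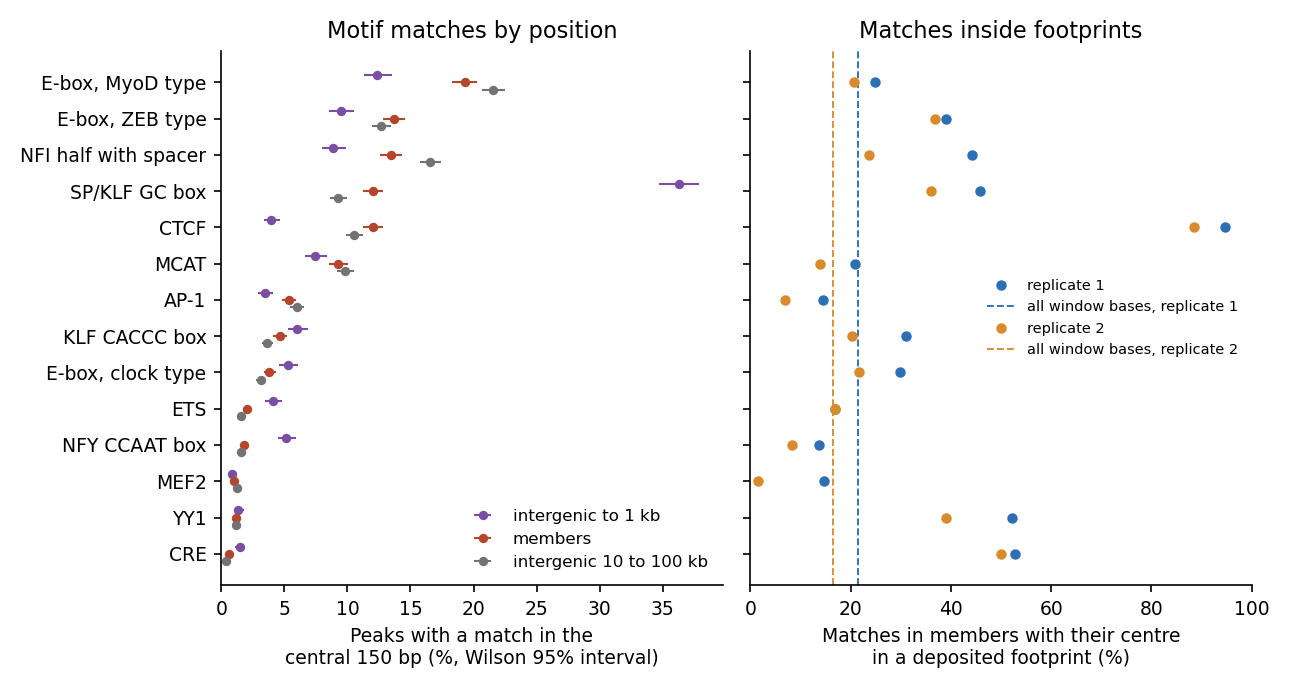
Left, percent of peaks with a motif match in the central 150 bp (x axis) for 14 motifs (y axis) in members and in intergenic peaks up to 1 kb and at 10 to 100 kb, with Wilson 95% intervals. Right, percent of matches in members whose centre lies in a footprint, by library, with dashed lines at the share of all bases (21.5% and 16.6%); CTCF stands at 94.7% and 88.4%.

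The signals of the libraries followed each other across members. Centred on all shared peaks, the log2 ratio of replicate 1 to replicate 2 had a median of 0.02, and 319 members (5.39%) were over 2-fold apart, 187 higher in replicate 1 and 132 in replicate 2. Of all 49760 shared peaks a similar share was that far apart (2745, 5.52%), with 1233 higher in replicate 1 and 1512 in replicate 2. Across members Pearson's r of the log2 signals was 0.857 and Spearman's rho 0.835, given as a description, since members share their library and were chosen for being in both. Across all shared peaks both were higher, at 0.913 and 0.890. Among members at or above the median signal, the 3 that leaned most to replicate 1 were upstream of Hspa4, a heat shock protein (2.64 and 0.521), near the long noncoding RNA gene Gm47150 (3.60 and 0.854) and near the microRNA gene Gm44355 (2.72 and 0.675). The 3 that leaned most to replicate 2 were near Gm16170 (0.562 and 1.71), upstream of Zp3r (0.710 and 2.14) and upstream of Ccdc190 (0.964 and 2.40). With 1 library behind each value, these differences have no replicate check.

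**Figure D4:**
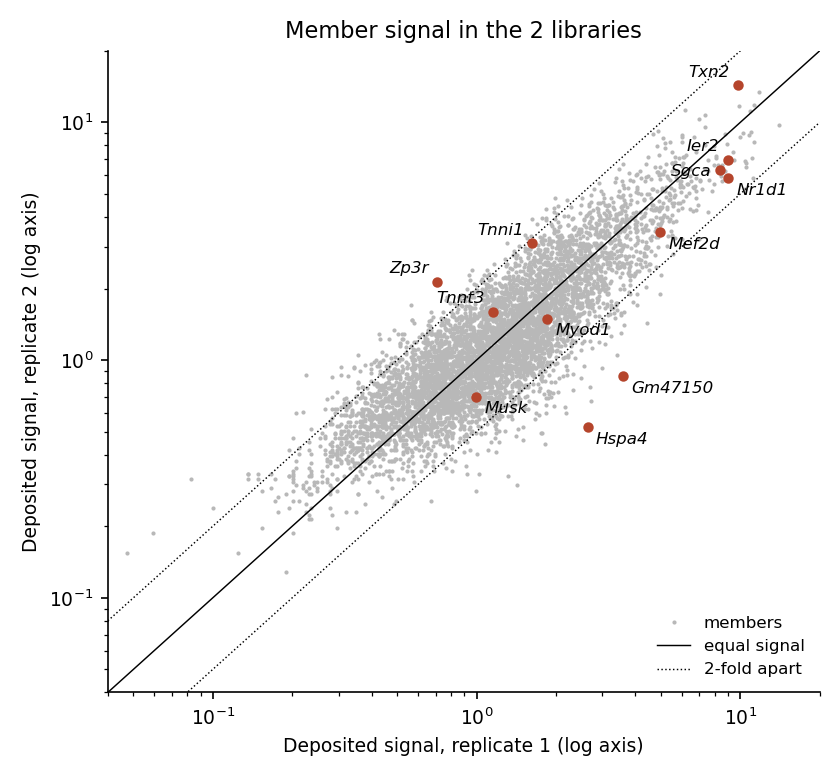
Deposited signal of each of 5922 members in replicate 1 (log x axis) and replicate 2 (log y axis), with lines for equal signal and 2-fold difference and named members in red. Most members lie between the 2-fold lines, and Hspa4, Gm47150 and Zp3r lie outside them.

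Of 21938 protein-coding genes, 2330 had a member within 10 kb for which they were the nearest coding gene, a background of 10.6%, and 515 had 2 or more, a background of 2.35%. Among the 13691 genes with a shared peak within 1 kb of a start, 1743 (12.7%) had a member, against 587 of the other 8247 (7.12%). The most members at 1 gene were 9, at Kdm6b, a histone H3K27 demethylase, and at Lbx1, a homeobox gene of migrating limb muscle precursors. All 9 of Kdm6b lay upstream within 69415261 to 69420400 of chromosome 11, with signals up to 5.29 and 4.41, and those of Lbx1 reached only 1.04 and 1.28. Tnrc18 and the zinc-finger gene Zfp503 had 8 each, and Id2, an inhibitor of helix-loop-helix factors, had 7. Members crowded together elsewhere too, and 22.1% had another member within 1 kb.

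Genes of rapid and rhythmic regulation had members more often than the background, and housekeeping genes, given below, did too. Of 16 immediate early genes, which answer stimuli within minutes, 9 had one (56.3%, 33.2 to 76.9%, against 10.6%) and 5 had 2 or more (31.3% against 2.35%), with 17 members in all. Of 23 genes of atrophy, glucocorticoid response and the clock, 12 had one (52.2%, 33.0 to 70.8%) and 6 had 2 or more, with 22 members. Every gene of both lists had a shared promoter peak, and against the 12.7% of all such genes the shares were unchanged at 56.3% and 52.2%. The lists were chosen with earlier results of these data known and were not matched to other genes for the intergenic sequence around them, so their counts are a description. When distance was taken from coding starts alone, 87.5% of the immediate early genes had a member, against 11.54% of all coding genes.

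Several members of these lists were among the strongest of all. The Ier2 member shown above had 8.96 in replicate 1 and 6.96 in replicate 2. A member 7.83 kb upstream of Nr4a1, an orphan nuclear receptor induced by exercise, had 7.05 and 5.65, and the strongest of 4 members upstream of Egr3, which is needed for muscle spindles, had 3.98 and 4.03. Upstream of Fos, the AP-1 subunit, the signal was 2.88 and 2.71, and upstream of its partner Junb 4.06 and 3.12. A GC box was in 7 of the 17 immediate early members, against 12% of all members. AP-1, CRE and SRF CArG matches were in 0 of the 17, and at their shares of all members (5.35%, 0.608% and 0.473%) so few members could hold none. All but 2 of the 17, both downstream of Ier2, lay upstream of their gene. Of all members whose nearest start was coding, 75.4% lay upstream, since coding gene bodies had been left out.

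Clock repressor genes had some of the stronger members, with CACGTG E-boxes at Nr1d1 and Bhlhe41 and none at Bhlhe40, Per1 and Cry2. The Nr1d1 member 8.18 kb upstream had 8.96 in replicate 1 and 5.84 in replicate 2, and another 1.76 kb upstream 1.44 and 1.26. The Bhlhe41 members had 6.00 and 8.68 at 9.45 kb downstream and 6.06 and 4.68 at 1.19 kb upstream. Bhlhe40, the paralog of Bhlhe41, had 4 members, the strongest with 5.43 and 4.95. Of the clock repressor genes Per1 and Cry2, the former had 2.31 and 3.91 and the latter 2.02 and 1.47. CACGTG lay in 4 of the 22 members of this list, at Nr1d1, Bhlhe41 (both members) and Foxo3, while 3.82% of all members and 4.27% of all shared peaks held it. Among atrophy genes, Foxo3, a driver of the ubiquitin ligases of wasting, had 7.83 and 5.12 at 1.02 kb upstream and 5.03 and 5.12 beside it (both met 1 replicate 2 peak), the ligase gene Trim63 (MuRF1) had 2.49 and 1.89 at 7.40 kb upstream, and Foxo1 had 4 members with 0.651 to 1.46 in replicate 1 and 0.581 to 1.92 in replicate 2. A glucocorticoid receptor palindrome was found in 1 of the 22, upstream of the metallothionein gene Mt2, and in 0.523% of all members and 0.388% of all shared peaks.

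Muscle genes had members at about 1 in 5, with modest signal apart from a few. Of 77 genes of sarcomere, triad and myogenic control, 17 had one (22.1%, 14.3 to 32.5%, against the background of 10.6%), with 28 members. Of these members 19 lay upstream, against 75.4% of all members whose nearest start was coding. Signals ran from 0.538 to 8.34 in replicate 1 (median 1.23) and from 0.649 to 6.32 in replicate 2 (median 1.26), close to those of all members. With the shorter, stricter peak lists 13% of these genes had a member, against 7.08% of all coding genes. A CAGCTG E-box was in 8 of the 28 (19.3% of all members), a TEAD element in 2 (9.27% of all members) and a MEF2 match in 0 (1.05% of all members), and the counts for TEAD and MEF2 were near those shares. Of the 15 marker genes fixed for naming, Myod1, Tnnt3 and Pdgfra had members, and Myog, Myf6, Acta1, Ckm, Des, Actn3, Mylpf, Pvalb, Ryr1, Chrna1, Pax7 and Pecam1 had none.

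By role, the myogenic and fibre-type transcription factors had members at 5 of 20 genes. The Mef2d member 3.91 kb upstream, which held both a MyoD-type and a clock-type E-box and a CRE, had 4.98 in replicate 1 and 3.45 in replicate 2, and 3 of its 4 weaker members overlapped one another. The Myod1 member 2.74 kb downstream had 1.85 and 1.5 and that of the TEAD gene Tead4 1.04 and 1.65. Replicate 1 was the higher for Mef2d and Myod1 and the lower for Tead4.

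Of fast sarcomere genes 4 of 16 had members (10.2 to 49.5%) and of slow and cardiac ones 3 of 15 (7.05 to 45.2%), and both intervals held the background of 10.6%. Tnni2, the fast troponin I, had 2.39 and 2.04 at 1.04 kb upstream, and the Tnnt3 member had 1.15 and 1.60. Atp2a1, the fast calcium pump SERCA1, had 3 members upstream, the strongest with 2.31 and 1.86. Tnni1, the slow troponin I, had 1.63 and 3.11 downstream, the widest gap between the libraries among these. Of 26 pan-fibre genes 5 had members (8.51 to 37.9%, an interval that also held 10.6%). That of Sgca at 2.79 kb upstream (8.34 and 6.32) was the strongest of any muscle gene. Stac3 had 1.79 and 1.81 at its CTCF-type member.

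Junction genes and metabolism completed the fibre lists. At the neuromuscular junction 3 of 14 genes had a member (21.4%, 7.57 to 47.6%, an interval that holds the background of 10.6%). Each of these 3 members held CAGCTG, which 19.3% of all members held: Dok7 (1.26 and 1.23), Chrne, the adult acetylcholine receptor subunit (1.31 and 0.940), and Musk, the receptor kinase of the synapse (0.994 and 0.701). Of 20 oxidative genes 4 had one (20%, 8.07 to 41.6%, which also holds 10.6%). Among them were Cs, the citrate synthase (2.09 and 1.80, with a CTCF match), and Mb, myoglobin (1.63 and 1.22). Of 18 glycolytic genes only Ldha, the lactate dehydrogenase, had members (2.17 and 1.56 at the strongest), 5.56% (0.988 to 25.8%) against 10.6%.

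Genes of other cells of muscle had members too. The intervals of the endothelial and satellite cell lists (7.05 to 45.2% for each) and of the leukocyte list held the background of 10.6%. Members were found at 4 of 15 genes of fibro-adipogenic progenitors, where Col1a1, the main collagen, had 5.69 and 3.83 and Pdgfra 1.38 and 1.34, at 4 of 12 of smooth muscle and pericytes (Notch3, 2.66 and 2.10) and at 3 of 15 of endothelium (Sox18, 1.23 and 1.52). The fibro-adipogenic interval (10.9 to 52.0%) and the smooth muscle interval (13.8 to 60.9%) lay above 10.6%. Among genes with a promoter peak they were 9.75 to 56.6% and 12.1 to 64.6%. Both then held the 12.7% of all such genes. Satellite cell genes had them at 3 of 15, with Hes1, a Notch target, at 3.41 and 2.54. None of 15 macrophage and leukocyte genes had a member (0 of 15, Wilson upper bound 20.4%). Of genes of other tissues, hepatocyte, neuron and keratinocyte lists had 1 each of 12, 13 and 10 (Ambp, Slc17a7 and Sfn). Their intervals (1.49 to 35.4%, 1.37 to 33.3% and 1.79 to 40.4%) held 10.6%. Housekeeping genes had members at 7 of 18 (38.9%, 20.3 to 61.4%, against 10.6%), and 5 had 2 or more (27.8% against 2.35%).

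**Figure D5:**
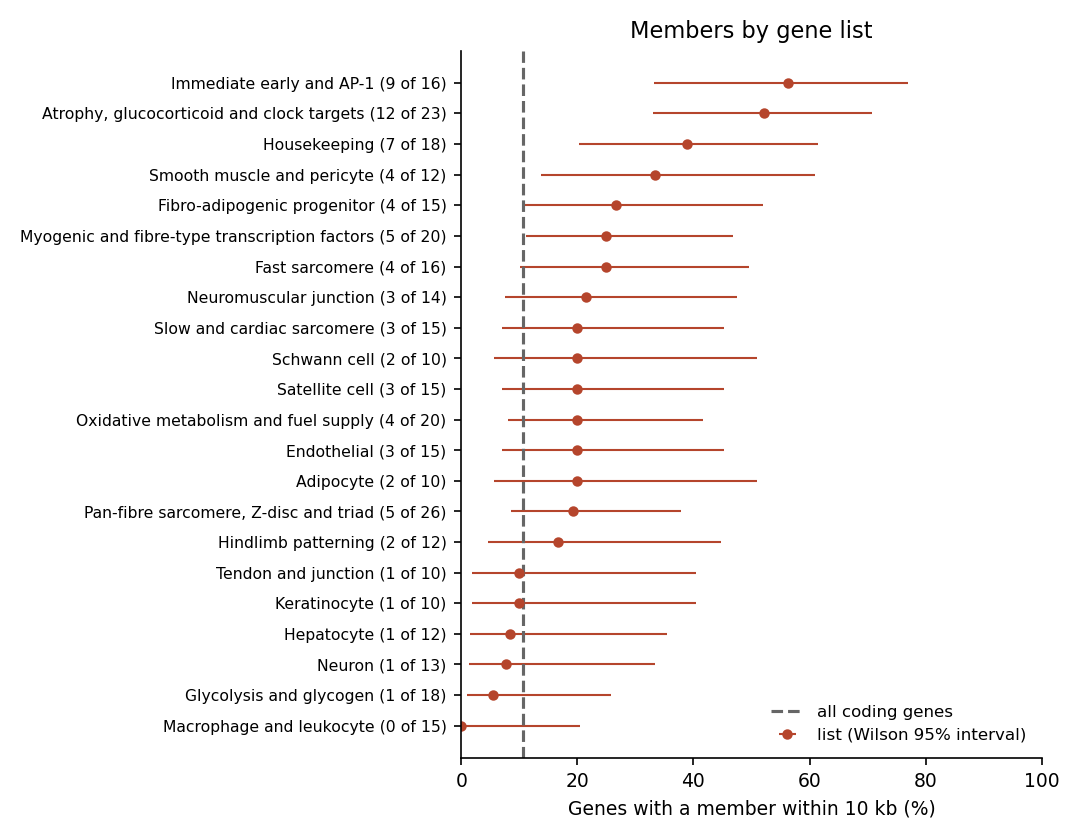
Percent of genes with a member within 10 kb (x axis) in 22 gene lists (y axis, with counts), with Wilson 95% intervals and a dashed line at 10.6% of all coding genes. Immediate early genes (56.3%) and genes of atrophy, glucocorticoid response and the clock (52.2%) stand at the top, and macrophage and leukocyte genes at 0.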

How the data were processed

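DNase-seq peaks, footprints and q-values of 2 libraries of 1 group were used as deposited, on mm10 per the labels. The peak signal is the authors' deposited signal. The deposited q-value lists positions below 0.05. It was looked up for members and for unshared peaks, and only the look-up of unshared peaks is reported here. The footprint files hold a constant in their score column, so the authors' deposited footprint positions were used and the score was not. Peaks were called per library, per the file headers and notes deposited with each library. The sources used here name neither the aligner nor the peak and footprint callers.

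Peaks on 21 chromosomes were joined with GENCODE M21 and with RefSeq GRCm38.p6 in Python 3.11 (pandas 2.3.3, numpy 2.4.6, pysam 0.24.0). Starts were those of every annotated transcript. Where a member overlapped several replicate 2 peaks, the strongest gave its replicate 2 signal. Sequence was read in the central 150 bp. Joining, available bases and motif search were tested on simulated data. Members and gene lists were chosen with earlier results of these data known. Genes were named by rule: the 10 strongest members, up to 3 genes per list by strongest member, 15 markers, the 5 genes with most members and the 3 highest and lowest library ratios, with motifs chosen by the 5 highest and 3 lowest ratios of shares. Others (Fos, Junb, Per1, Cry2, Bhlhe40, Trim63, Foxo1, Mt2, Tead4, the Stac3 sequence, and the tRNA and RefSeq comparisons) were named after their values were seen. A few genes that the rule names are not reported here.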

Additional observations from a re-analysis of the deposited data

How the results depend on the processing

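Other settings gave 142 values for 13 results, of which 102 stayed within the spread between libraries, the counting interval or 1.5 times the count, and 40 moved. No fold or ratio crossed 1, while the log2 ratio, near 0 throughout, changed sign under 4 settings. RefSeq starts, overlapping peaks counted once, and the settings for the 3 gene-list shares and the GC box were chosen after seeing the data.

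The reported values were 5922 members, a density fold of 1.73, 59.1% upstream, a signal ratio of 1.28, 91.1% with a footprint, a median GC content of 54.7%, 12% with CTCF and a log2 ratio (replicate 1 to replicate 2) of 0.02, with 10.6% of coding genes, 56.3% of immediate early genes and 22.1% of muscle genes having a member. With coding starts only there were 3473 members, the fold was 1.51, 74.1% lay upstream, GC was 56.0%, CTCF 13%, the log2 ratio -0.013 and immediate early genes with a member 87.5%. With the shorter, stricter peak list of each library there were 3373 members, the fold was 1.98, the signal ratio 1.21, footprints 96.4%, GC 55.3%, CTCF 15.7%, the log2 ratio -0.042, coding genes with a member 7.08% and muscle genes 13%. Among shared peaks above the median signal there were 2675 members, the fold was 2.52, the signal ratio 1.06, footprints 98.5%, GC 56.7%, CTCF 16.4%, the log2 ratio -0.044 and coding genes with a member 6.11%. Reciprocal overlap gave GC of 55.3%, CTCF 14.7% and a log2 ratio of -0.017, and replicate 2 coordinates gave GC of 55.3%. Avoiding every gene body gave 65.9% upstream and CTCF 12.9%, gene 5′ ends gave 64.0% upstream, and the 2 to 10 kb window gave a fold of 1.63 and 57.5% upstream. With RefSeq starts the fold was 2.00 and 54.1% lay upstream. The cause of these shifts was not tested. Leaving out a library gave signal ratios from 1.25 to 1.30 and footprint shares from 88.2% to 94.0%.

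No paired analysis was possible because there is 1 group. Unshared peaks were weak, and the part of depth in which peaks count as shared was not tested. Both libraries were placed on the C57BL/6J reference, and the effect of CAST alleles on peaks and motif matches was not tested.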

Other observations

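On the X chromosome members were few and weak. Males carry a single copy of the X, and whether this bears on either trait was not tested. The X held 103 members, 3.9 per Mb of available sequence against 15.5 on the autosomes. Their median signals were 0.533 and 0.512 of the autosomal medians in replicates 1 and 2. Chromosome 11 had the highest density of the 21 chromosomes, at 29.5 per Mb.

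Peaks of the same window found in 1 library only were weak. Replicate 1 had 12844 peaks in the window, of which 46.1% were shared, and replicate 2 had 7409, of which 79.1% were shared. Unshared peaks had median signals of 0.479 in replicate 1 and 0.350 in replicate 2, against 1.15 and 1.09 for shared ones. A q-value below 0.05 was listed in the other library for 520 of the 6922 peaks of replicate 1 alone (7.51%, 6.91 to 8.16%) and for 212 of the 1551 of replicate 2 alone (13.7%, 12 to 15.5%). The longer peak lists appear to use the same limit of 0.05, and an unshared peak met no peak of the other library's list. Low shares thus follow largely from the definition and are no separate check of signal in the other library.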
